A study of Caenorhabditis elegans with 11 samples.

Results

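The genes described here encode the superoxide dismutases (sod-1 to sod-5), the catalases (ctl-1, ctl-2 and ctl-3) and the metallothioneins (mtl-1 and mtl-2) of C. elegans. Members were the probe sets of the Affymetrix C. elegans array whose annotation carries the symbol of 1 of these 10 genes, which gave 11 of the 22548 probe sets and 10 of the 18217 annotated genes: 5 for superoxide dismutases, 2 for catalases and 4 for metallothioneins. For mtl-2 there were 3 probe sets, whereas ctl-1 and ctl-3 shared a single one and could not be told apart. RNA came from whole animals at the L4 stage, the last larval stage, of strains BW1940 (5 arrays) and LT186 (6 arrays), both derived from the Bristol strain N2, hatched without food and then fed E. coli OP50. BW1940 carries the integrated transgene ctIs40, built from a cosmid with wild-type dbl-1 and a sur-5::gfp marker plasmid, and overexpresses the BMP-like ligand DBL-1. LT186 carries sma-6(wk7), a stop codon in the type I receptor of DBL-1. Each strain is a single line, each array is labelled a biological replicate, and no wild-type arrays were compared, so that a difference may lie with either strain. Expression values are intensities on a linear scale, which the authors scaled to a common target on each array.

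Superoxide is a by-product of respiration that superoxide dismutases turn into hydrogen peroxide, and catalases break hydrogen peroxide down to water and oxygen. Metallothioneins are small proteins rich in cysteine that bind zinc, cadmium and other metals. In C. elegans several of these genes, sod-3 and mtl-1 above all, are known as targets of the FOXO factor DAF-16 downstream of insulin signaling, and mtl-2 is known for its expression in the intestine.

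Checks of the strains and of the arrays set the frame for these values. The brighter probe set of sma-6 gave 82.4 to 128 on BW1940 arrays, against 26.5 to 33.6 on LT186 arrays, so the mutated gene followed the label on every array. The overexpressed gene dbl-1 separated the strains less: its probe sets gave 54.9 to 107 and 20.1 to 62.0 on BW1940 arrays, against 40.8 to 79.5 and 14.6 to 28.6 on LT186 arrays, with overlap, and neither passed limma's test (adjusted p of 0.318 and 0.117). The probe sets of the Smad gene sma-2, a further check, had log2 fold changes of 0.94 (limma adjusted p = 0.0042) and 0.52 (limma adjusted p = 0.298). The mean value of an array was 126 to 142.5 for BW1940, against 112 to 130 for LT186. The medians were 37.0 to 39.96 for BW1940, against 34.2 to 38.8 for LT186. RNA of sperm differed between arrays within each strain. Its score, the mean log2 value of 32 sperm genes, was low in BW1940 replicate 1 (7.55) and in LT186 replicates 2 (6.10) and 4 (5.80), and at least 8.29 on the other 8 arrays. LT186 replicates 2 and 4 formed the closest pair of arrays (median absolute log2 difference 0.11) and were kept as separate samples.

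Markers of the intestine separated the strains, and those of other tissues overlapped. The mean log2 value of 7 intestinal genes was 8.78 to 9.10 in BW1940, against 8.42 to 8.55 in LT186, without overlap, and 7 of 7 had a log2 fold change above 0. Of 6 germ line genes 0 were above 0, with a mean log2 value of 7.72 to 8.24 in BW1940, against 8.14 to 8.64 in LT186. Of 5 muscle genes 5 were above 0, of 5 epidermal and 5 neuronal genes 4 each, and of 7 oocyte and adult genes 3. Of 32 sperm genes 27 were above 0, and of all probe sets tested 60.7%. The mean log2 value of the oocyte and adult genes ran from 4.66 to 8.18 in BW1940, against 4.66 to 8.81 in LT186. None of these markers passed the test across the array. The study states that the number of somatic cells is unchanged by DBL-1 signaling. For the germ line, fewer cells, less RNA per cell and a larger share of RNA from other tissues in BW1940 cannot be told apart in RNA of whole animals. Without wild-type arrays, neither can a change in LT186. For the intestine, a larger share of its RNA and higher expression of these marker genes alone cannot be told apart.

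None of the 11 member probe sets differed between BW1940 and LT186 after adjustment over all probe sets. Changes were tested with limma on the log2 of the value plus 10, and Benjamini-Hochberg adjusted p-values were taken over the 18801 probe sets that reached 10 on at least 2 arrays, all 11 members among them. Of these 18801, 191 passed at 0.05 (1.02%), 129 higher in BW1940 (0.686%) and 62 lower (0.33%), and of the members 0 of 11. At an unadjusted p under 0.05 limma found 3 of 11 members, all higher in BW1940, against 16.7% of all probe sets (11.7% higher and 5.03% lower). All of these members but ctl-2 were probe sets of the single gene mtl-2. The strains overlapped for each of the 11, whereas 4.41% of all probe sets showed no overlap. A log2 fold change above 0 was seen in 8 of 11 members and in 60.7% of all probe sets, and the median was 0.22 over the members and 0.08 over all probe sets. In these counts and in the median, mtl-2 enters with each of its 3 probe sets, all above 0.

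**Figure D1:**
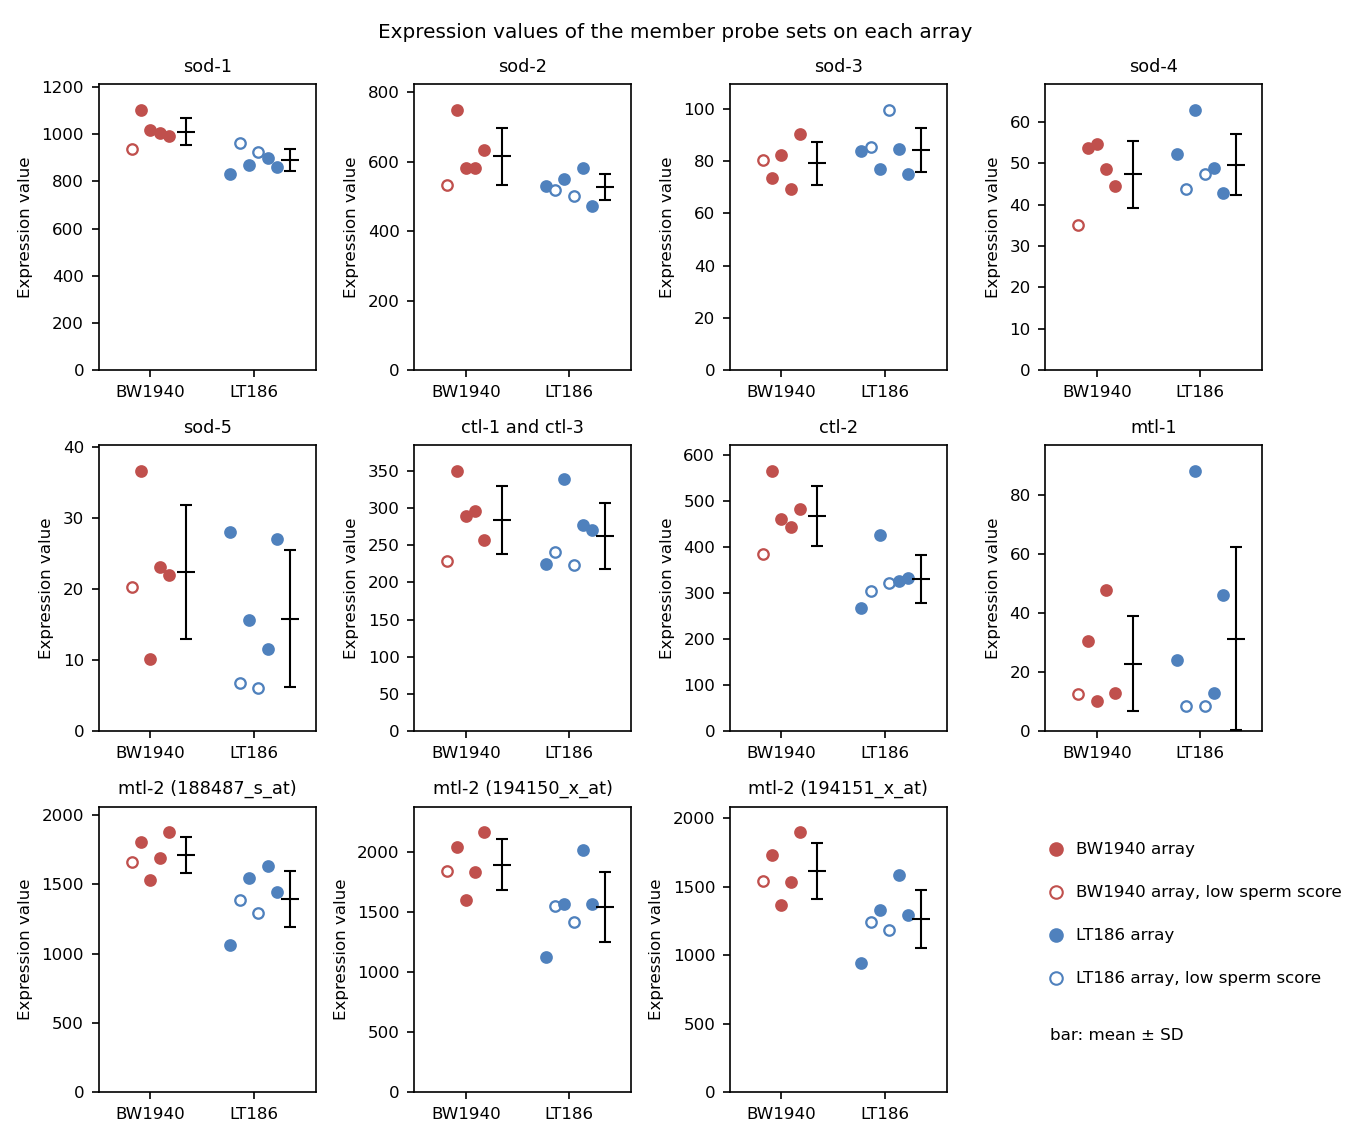
Expression value (linear intensity) of each member probe set on every array, 1 panel a probe set, with BW1940 at the left and LT186 at the right of each panel and the mean ± SD as a bar; open circles are the 3 arrays of low sperm score. The strains overlap in all 11 panels, and mtl-1 spreads most within a strain.

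The main superoxide dismutases of the cytosol and of the mitochondria averaged slightly more in BW1940, and neither passed the test. The gene sod-1 (C15F1.7) encodes the major cytosolic copper/zinc enzyme. Its values were 938, 1100.2, 1018, 1006 and 992 in BW1940 replicates 1 to 5, against 832, 964, 871, 923, 898 and 862 in LT186 replicates 1 to 6. Thus 4 of 5 BW1940 arrays lay above the highest LT186 array, and only BW1940 replicate 1 fell within the range of LT186. Its level averaged 1011 ± 58.6 in BW1940 (SD, n = 5), against 892 ± 47.1 in LT186 (SD, n = 6), a ratio of 1.13. The log2 fold change was 0.18 (SE 0.09, 95% interval -0.02 to 0.38), with an adjusted p of 0.360 by limma. An exact permutation test (two-sided) over the 462 ways to divide the arrays gave p = 0.00866, before any adjustment for the number of probe sets. The smallest p it can give is 0.00216.

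The gene sod-2 (F10D11.1) encodes the main manganese enzyme of the mitochondrial matrix. Its values were 532, 748, 581, 582 and 634 in BW1940, against 532, 519, 552, 502, 581 and 474 in LT186. BW1940 replicate 2 was the highest of the 11 arrays, and BW1940 replicate 1 lay among those of LT186. Its level averaged 616 ± 82.2 in BW1940 (SD, n = 5), against 527 ± 37.6 in LT186 (SD, n = 6). The strains differed by 0.22 on the log2 scale (SE 0.11, 95% interval -0.03 to 0.46, limma adjusted p = 0.368, exact permutation p = 0.0195).

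The other mitochondrial enzyme, sod-3 (C08A9.1), which is widely used as a reporter of DAF-16 activity, varied little. Its values were 80.5, 73.6, 82.3, 69.2 and 90.3 in BW1940, against 83.8, 85.3, 77.1, 99.4, 84.8 and 75.0 in LT186. The strains overlapped almost fully, and the highest array, LT186 replicate 4, exceeded the lowest, BW1940 replicate 4, by 1.44-fold. With a log2 fold change of -0.08 (95% interval -0.31 to 0.16, limma adjusted p = 0.799), the interval spans ratios of 0.804 to 1.11 on the scale of the value plus 10. The extracellular enzyme sod-4 (F55H2.1) averaged 47.3 ± 7.99 in BW1940 (SD, n = 5), against 49.6 ± 7.27 in LT186 (SD, n = 6). Its lowest array was BW1940 replicate 1 at 35.0 and its highest LT186 replicate 3 at 62.7, and all others lay within the range of both strains. The log2 fold change of sod-4 was -0.06 (95% interval -0.35 to 0.22, limma adjusted p = 0.886), and it was 0.022 without BW1940 replicate 1.

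The minor cytosolic enzyme sod-5 (ZK430.3), known for its expression in dauer larvae, gave values near the floor of the array. They were 20.3, 36.6, 10.1, 23.1 and 21.99 in BW1940, against 28.1, 6.88, 15.6, 6.06, 11.6 and 27.1 in LT186. BW1940 replicate 2 was the highest, and the lowest were LT186 replicates 2 and 4, the arrays with the least sperm RNA. Those arrays also had low means of the oocyte and adult markers (4.66 and 4.78). So did BW1940 replicate 3 (4.66) and LT186 replicate 5 (5.39), where sod-5 was 10.1 and 11.6. The part of either score was not tested. The log2 fold change of sod-5, 0.36, carried a wide interval (-0.25 to 0.97, limma adjusted p = 0.588). It was 0.22 without BW1940 replicate 2, 0.52 without BW1940 replicate 3 and 0.088 with the 3 arrays of low sperm score left out.

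Among the catalases, the peroxisomal enzyme ctl-2 (Y54G11A.5) had the largest log2 fold change of the 11 members, except that sod-5 exceeded it with an offset of 1 (0.58, against 0.50 for ctl-2), without BW1940 replicate 3 and without LT186 replicate 1, and mtl-1 did in size with array weights (-0.58). Its values were 385, 564, 461, 443 and 483 in BW1940, against 268, 305, 426, 321, 328 and 334 in LT186. Again 4 of 5 BW1940 arrays lay above every LT186 array, and BW1940 replicate 1 was exceeded by LT186 replicate 3 alone. Its level averaged 467 ± 65.4 in BW1940 (SD, n = 5), against 330.4 ± 52.6 in LT186 (SD, n = 6), a ratio of 1.41. The log2 fold change was 0.49 (SE 0.14, 95% interval 0.19 to 0.79), with an adjusted p of 0.121 by limma and an exact permutation p of 0.00649. With each array left out in turn it stayed between 0.42 and 0.56. With the sperm score as a covariate it was 0.47, with an adjusted p of 0.0511 by limma, in a fit in which 9.13% of all probe sets passed. The intestinal markers given above were higher in BW1940 as well, and their part in the difference of ctl-2 was not tested.

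The other catalase probe set, shared by ctl-1 (Y54G11A.6), which encodes a cytosolic enzyme, and ctl-3 (Y54G11A.13), differed little between the strains. In the WBcel235 reference the 3 catalase genes are direct neighbours in the order ctl-2, ctl-1, ctl-3. The shared probe set had values of 228, 349, 289.6, 296 and 256 in BW1940, against 224, 240.1, 339, 223, 277 and 269.7 in LT186. BW1940 replicate 2 and LT186 replicate 3 were high, as they were for ctl-2. The log2 fold change was 0.11 (95% interval -0.21 to 0.43, limma adjusted p = 0.790), and it was 0.035 without BW1940 replicate 2 and 0.18 without LT186 replicate 3. As a description, log2 of ctl-2 minus log2 of the shared probe set was 0.57 to 0.89 on BW1940 arrays, against 0.23 to 0.51 on LT186 arrays, with no overlap. The strain means of this difference lay 0.38 apart. The pair was chosen after its values were seen, so that no test is given. How far each probe set also reads the transcripts of the other catalase genes was not tested.

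**Figure D2:**
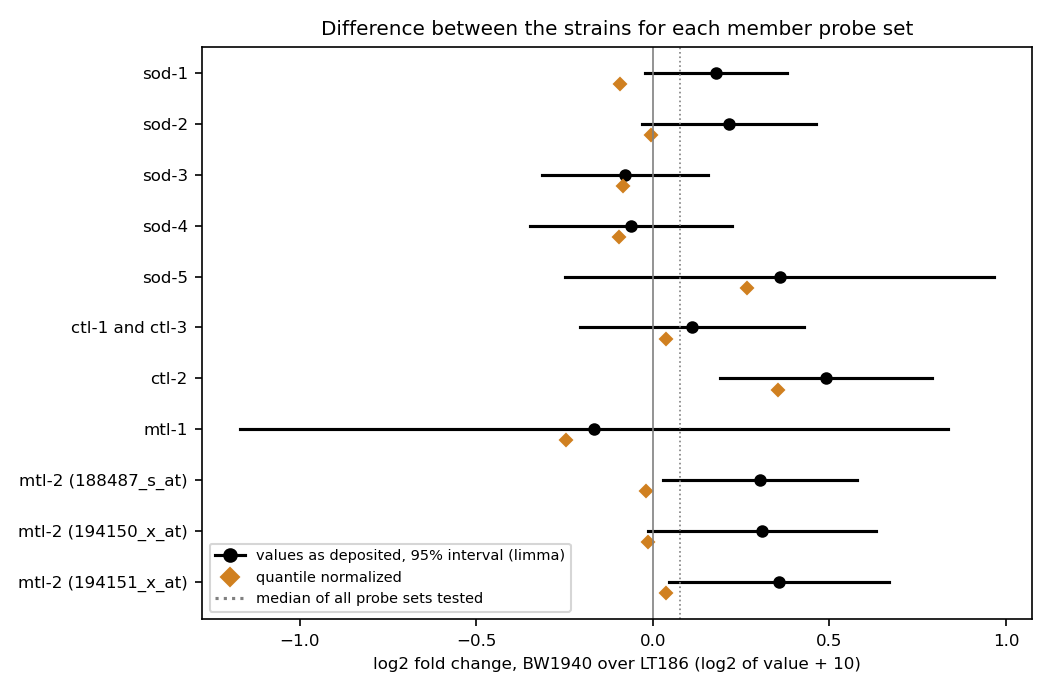
Log2 fold change of each member probe set, BW1940 over LT186, with the 95% interval from limma (black) and the value after quantile normalization (orange diamonds); the dotted line is the median of all probe sets tested, 0.08. Intervals of ctl-2 and of 2 of the 3 mtl-2 probe sets lie above 0 before adjustment, and after quantile normalization mtl-2, sod-1 and sod-2 lie near or below 0 while ctl-2 is at 0.35.

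Of the metallothioneins, mtl-2 (T08G5.10) averaged more in BW1940 on each of its 3 probe sets, without passing the test. On the brightest of them the values were 1846, 2039, 1598, 1836 and 2163 in BW1940, against 1130, 1553, 1570.1, 1416, 2020.2 and 1565 in LT186. LT186 replicate 1 was the lowest, LT186 replicate 5 reached the range of BW1940, and 2 of 5 BW1940 arrays lay above every LT186 array. These LT186 replicates also have the lowest (112) and the highest (130) mean value over all probe sets among the LT186 arrays, and BW1940 replicate 5 has the highest of all (142.5). The part of the array mean in the values of mtl-2 was not tested. The 3 probe sets read the same gene and are not independent. The brightest had a log2 fold change of 0.31 (95% interval -0.01 to 0.63, limma adjusted p = 0.317, exact permutation p = 0.0519). The next had 0.30 (limma adjusted p = 0.255, exact permutation p = 0.0152), and the dimmest 0.36 (limma adjusted p = 0.237, exact permutation p = 0.0216). After quantile normalization, which forces 1 distribution on all arrays, they were -0.013, -0.019 and 0.04 in that order. The higher intestinal markers of BW1940 stand beside this result too, and their part in it was not tested.

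The other metallothionein, mtl-1 (K11G9.6), had low values and varied more between replicates than any other member. Its values were 12.8, 30.6, 10.4, 47.8 and 12.9 in BW1940, against 24.0, 8.65, 88.1, 8.69, 13.2 and 46.3 in LT186. LT186 replicate 3 was the highest of the 11 arrays and LT186 replicate 2, below the minimum value of 10, the lowest, and high and low arrays occurred in both strains. Its level averaged 22.9 ± 16.09 in BW1940 (SD, n = 5), against 31.5 ± 31.2 in LT186 (SD, n = 6), with a log2 fold change of -0.17 (95% interval -1.17 to 0.84, limma adjusted p = 0.920), and of 0.14 without LT186 replicate 3.

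The values of some members differed between the arrays with little sperm RNA and the others. For 9 of 11 member probe sets (81.8%), 3 of them of mtl-2, at least 2 of the 3 arrays of low sperm score were among the lowest 3 of all 11 arrays, against 24.1% of all probe sets tested. Since 2 of these 3 arrays are of LT186, the strain with the lower mean for most members, this count does not separate sperm RNA from strain. BW1940 replicate 1 was among the lowest 3 for sod-4 and the probe set of ctl-1 and ctl-3 alone. For the other probe sets counted, the count rests on LT186 replicates 2 and 4, the closest pair of arrays. On those LT186 arrays, replicates 2 and 4, the oocyte and adult markers were low too (4.66 and 4.78), and their part was not tested. The exceptions to the count were sod-1, with 0 of 3, and sod-3, with 2 of 3 among its highest 3. On the 3 arrays of low sperm score mtl-1 lay between 8.65 and 12.8, against a median of 27.3 on the other 8. There the probe set of ctl-1 and ctl-3 lay between 223 and 240.1, against a median of 284. A high sperm score did not go with a high value of mtl-1 throughout: BW1940 replicate 5 and LT186 replicate 5, with scores of 9.45 and 9.64, had mtl-1 at 12.9 and 13.2. With the sperm score as a covariate, 0 of 11 members passed limma's test, against 9.13% of all probe sets, and 3 of 11 had an unadjusted p under 0.05, against 28.5%.

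**Figure D3:**
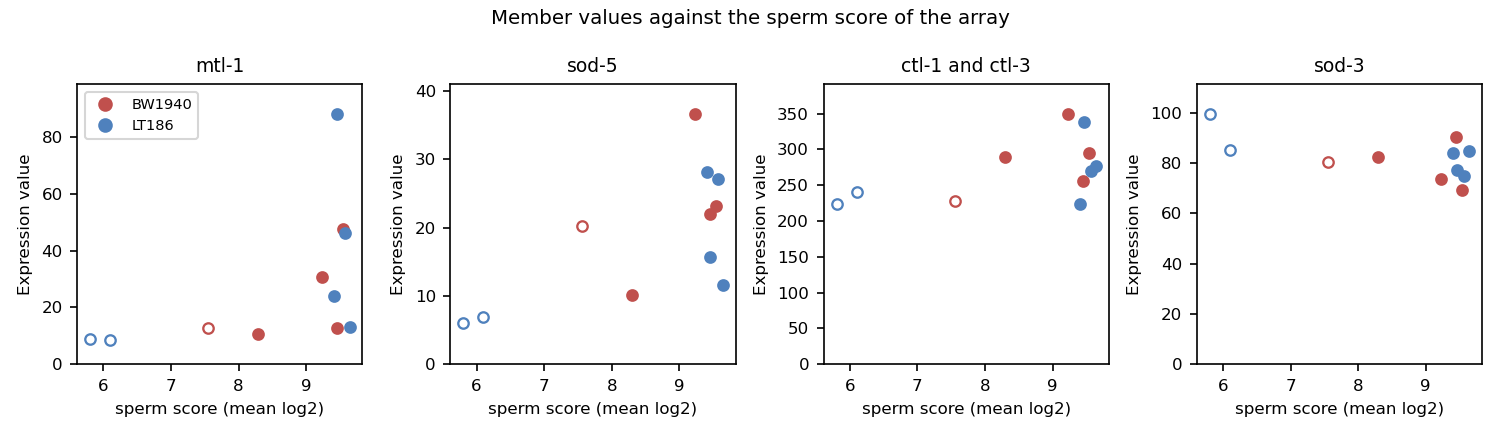
Expression value (linear intensity) of 4 member probe sets against the sperm score of the array (mean log2 value of 32 sperm genes), with BW1940 in red and LT186 in blue; open circles are the 3 arrays of low sperm score. Values of mtl-1 are at most 12.8 on those 3 arrays and range from 10.4 to 88.1 on the others, and sod-3 stays between 69.2 and 99.4 throughout.

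The direction of several bright members changed under quantile normalization and not when arrays were centred on their medians. With the values as deposited 8 of 11 members had a log2 fold change above 0, with median centring 8 of 11, and after quantile normalization 4 of 11. With median centring sod-1 was at 0.13, sod-2 at 0.16 and the mtl-2 probe sets between 0.25 and 0.31. Under quantile normalization the sign changed for sod-1 (-0.095), for sod-2 (-0.0056) and for 2 of the 3 probe sets of mtl-2. For ctl-2 the value was 0.35 after quantile normalization (limma adjusted p = 0.242). Over all probe sets, quantile normalization gave 86 calls higher and 90 lower in BW1940, in place of 129 higher and 62 lower. The mean value of an array, which bright genes dominate, was above 126 on each of the 5 BW1940 arrays and on 1 LT186 array, replicate 5. Its part in these changes of sign was not tested.

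**Figure D4:**
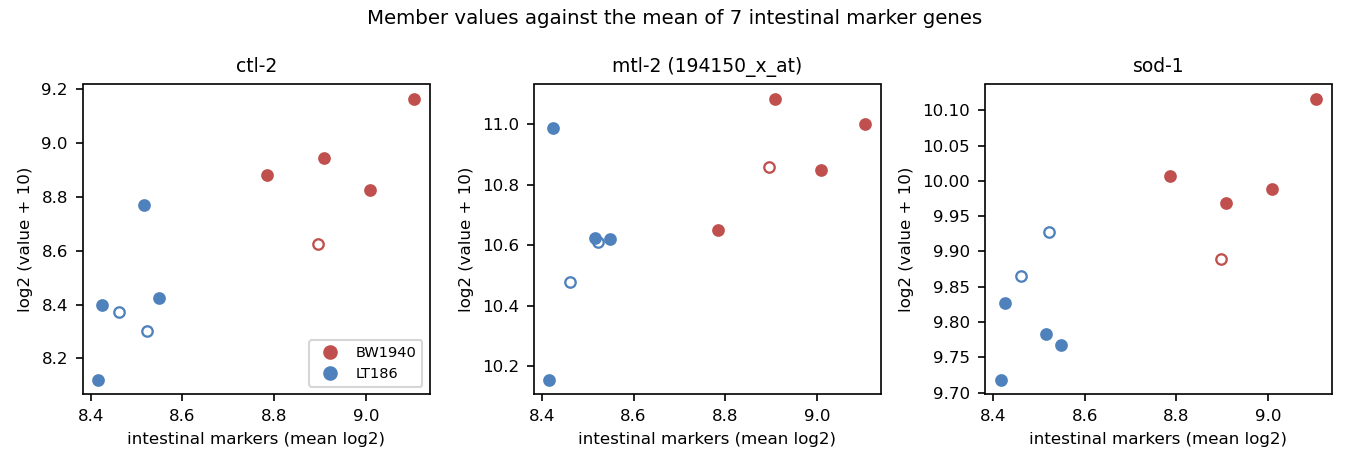
Log2 value of ctl-2, of the brightest mtl-2 probe set and of sod-1 on each array against the mean log2 value of 7 intestinal marker genes, with BW1940 in red, LT186 in blue and open circles for the 3 arrays of low sperm score. The marker means of the strains do not overlap, at 8.78 to 9.10 in BW1940, against 8.42 to 8.55 in LT186, and the member values overlap in each panel.

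Genes whose log2 values ran most alike over the 11 arrays were looked up for each member, among probe sets of a single gene. For ctl-2 the gene of highest likeness was daf-22, which encodes a thiolase of peroxisomal fatty acid oxidation, with a Pearson correlation of 0.94. For mtl-2 it was unc-60, an actin regulator (0.98), followed by the peroxiredoxin gene prdx-2 (0.97). How far the probe sets of mtl-2 and unc-60 also read other transcripts was not tested. For sod-1 it was pho-13 (0.95), which itself passed limma's test with a log2 fold change of 1.04 (adjusted p = 0.0226), and then the malate dehydrogenase gene mdh-1 (0.93). For sod-2 it was F43C11.7 (0.95), for sod-3 F58G11.4 (0.93) and for sod-4 F49E11.2 (0.92). For sod-5 it was the DnaJ gene dnj-28 (0.95), and for the probe set of ctl-1 and ctl-3 the coatomer gene cope-1 (0.93). For mtl-1 it was the clathrin adaptor gene unc-11 (0.94), whose values were near the floor, at 6.18 to 12.7. These correlations are the highest among the tested probe sets of a single gene, with the members left out. They were taken over 11 arrays that share the strain difference and the spread in sperm RNA and in oocyte and adult markers. They describe likeness alone.

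Other genes of redox and metal biology, taken from 6 lists by function, had higher medians than the whole array in 5 of the lists. Of 118 listed genes 103 were tested, each by its brightest probe set. Of these 1 was higher in BW1940 after adjustment and 0 lower (0.971%, against 1.02% of all probe sets). At an unadjusted p under 0.05, 28 were higher and 1 lower, against 11.7% and 5.03% of all probe sets, and 76 of 103 had a log2 fold change above 0 (73.8%, against 60.7%). Their log2 fold changes had a median of 0.23 over the 23 genes of peroxide and thiol metabolism and 0.28 over 24 genes of metal handling, against 0.08 over all probe sets. The median was 0.21 over 15 peroxisome genes, 0.41 over 11 other stress targets, 0.10 over 7 oxidase and haem peroxidase genes and -0.02 over 23 stress regulators. The listed genes were not matched in brightness to the whole array, with which their counts and medians are compared. After quantile normalization the median over all 103 was 0.11, against 0.0026 over all probe sets. All 15 peroxisome genes had values above 0, between 0.07 for maoc-1 and 0.53 for prx-2, and 0 of 15 passed the test, with 3 at an unadjusted p under 0.05 by limma.

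The gene past the test was pqm-1, which encodes a zinc finger transcription factor that binds the DAF-16-associated element and is known to leave the nucleus when DAF-16 enters it. Its values were 410.5, 407.5, 324, 305 and 249 in BW1940, against 109, 172, 143, 151.7, 129 and 140.3 in LT186. Every BW1940 array lay above every LT186 array. Its level averaged 339 ± 69.3 in BW1940 (SD, n = 5), against 141 ± 21.1 in LT186 (SD, n = 6). The log2 fold change was 1.201 (SE 0.16), with an adjusted p of 0.00471 by limma, and it was 1.14 after quantile normalization and 1.25 with the sperm score as a covariate. Among other regulators, daf-16 was at 0.10 (adjusted p = 0.860) and skn-1 at 0.12 (adjusted p = 0.884). The intestinal GATA factor gene elt-2 was at 0.20 (adjusted p = 0.664 by limma) and mdt-15 higher, at 0.95 (adjusted p = 0.284 by limma). These genes were chosen after their values were seen, and of all 23 stress regulators 11 were above 0. The values are of RNA and do not measure the activity of these factors.

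Besides pqm-1, the listed genes gpx-1, aco-1, sgk-1 and sur-7 had no overlap between the strains, without passing limma's test after adjustment. They were named for this after their values were seen, and with pqm-1 they make 5 of 103 (4.85%, against 4.41% of all probe sets). The glutathione peroxidase gene gpx-1 averaged 439.9 ± 40.3 in BW1940 (SD, n = 5), against 330.3 ± 35.6 in LT186 (SD, n = 6), a log2 fold change of 0.40 (limma adjusted p = 0.117). The aconitase gene aco-1, of the family of iron regulatory proteins, averaged 815 ± 73.3 in BW1940 (SD, n = 5), against 617 ± 103 in LT186 (SD, n = 6), a log2 fold change of 0.41 (limma adjusted p = 0.170). The kinase gene sgk-1 stood at 0.47 (adjusted p = 0.124) and sur-7, of the cation diffusion facilitator family, at 0.62 (adjusted p = 0.255 by limma). With the sperm score as a covariate 11 of 103 passed, all higher in BW1940 (10.7%, against 9.13% of all probe sets). Those were gpx-1, gpx-7, smf-3, fpn-1.1, cdr-2, hizr-1, aco-1, pqm-1, scl-1, prx-11 and daf-22.

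The extremes of the lists were mostly genes that varied between replicates. In peroxide and thiol metabolism the highest was the thioredoxin gene trx-3 at 1.11 (limma adjusted p = 0.177), with 119.3 to 342 on BW1940 arrays, against 61.8 to 219 on LT186 arrays, and the lowest was the glutaredoxin gene glrx-21 at -0.36 (adjusted p = 0.274). In metal handling the highest was fpn-1.2, a ferroportin-like gene, at 0.80 (adjusted p = 0.337), a value set by the offset, since its LT186 values of -46.9 to 12.9 were mostly below 0, and the lowest was the metal transporter gene smf-1 at -0.72 (adjusted p = 0.577). Elsewhere the lowest were hcf-1 at -0.37, sip-1 at -0.17 and skpo-3 at -0.11, and the highest dod-3 at 0.88 and skpo-2 at 0.45, with adjusted p of at least 0.199 by limma.

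**Figure D5:**
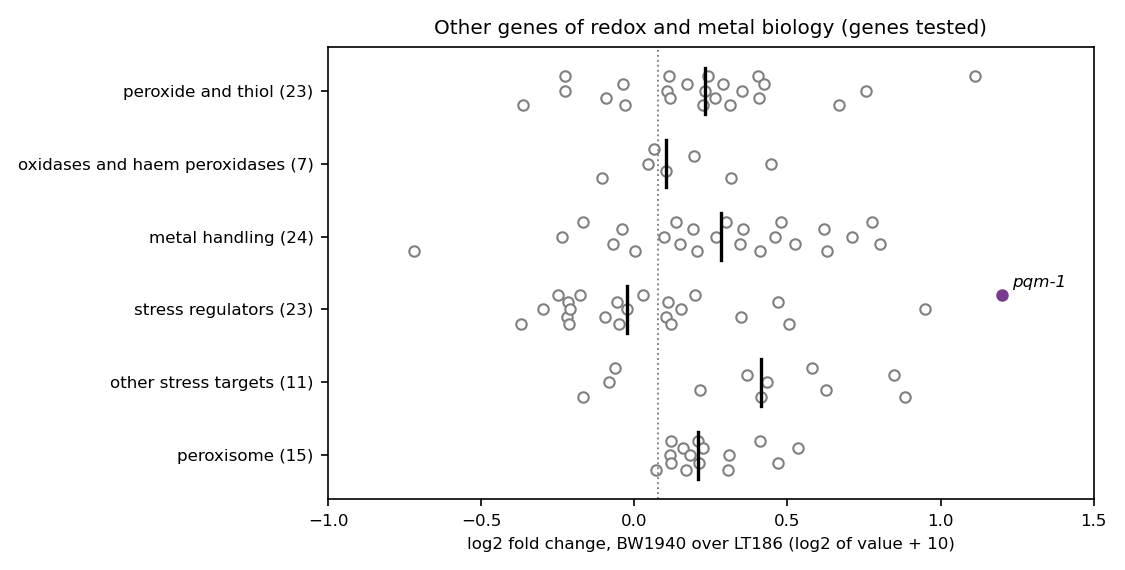
Log2 fold change, BW1940 over LT186, of each tested gene of 6 lists (number of genes in brackets), with the list median as a bar and the median of all probe sets tested as a dotted line at 0.08. The filled point is pqm-1, at 1.201, the gene past limma's test, and the peroxisome genes lie between 0.07 and 0.53.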

How the data were processed

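The arrays were grouped by the genotype given in the labels. The deposited values are intensities per probe set. The authors read the arrays with Microarray Suite 5 and derived 1 expression value a probe set with Probe Profiler, which weighs probe pairs by how informative they are, and brought each array to a common scale. No detection calls were used here. The annotation gives a single symbol for 20766 of 22548 probe sets, several for 887 and none for 895. For testing, negative values became 0, an offset of 10 was added before log2, and probe sets reaching 10 on 2 or more arrays were fitted with limma 3.58.1 (R 4.3.3), with Benjamini-Hochberg adjustment at 0.05. This fit was tested on simulated data. For single probe sets the difference between the strain means of log2 values was also tested by an exact permutation test (Python 3.11.15). Ratios compare group means of linear values.

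The members and the gene lists were chosen with earlier results of these data known. Genes named are the members, those past the test in a list, the highest and lowest of each list, and those most alike to a member. The genes sma-6, sma-2 and dbl-1 were named as a check of the strains. Exceptions are marked as chosen after seeing their values. Of 118 listed genes, 106 had their own probe set and 103 passed the filter. Other settings changed the offset, the filter, the array scaling, the moderation, the test or the array weights, added a replicate block or the sperm score, averaged LT186 replicates 2 and 4, and left out arrays. Promoter motifs were not analysed here. Precision is limited by the number of arrays, and p-values measure the spread between arrays.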

Additional observations from a re-analysis of the deposited data

How the results depend on the processing

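The count of member probe sets past the test was 0 of 11 under all 14 other settings and with each of the 11 arrays left out (3 at an unadjusted p under 0.05 by limma as reported). Of 273 log2 fold changes of members under these settings, 267 kept their sign, and 6 changed it: sod-1 (-0.095), sod-2 (-0.0056) and 2 probe sets of mtl-2 (-0.019 and -0.013) after quantile normalization, sod-4 without BW1940 replicate 1 (0.022) and mtl-1 without LT186 replicate 3 (0.14). The methods' t-test, here a plain one in place of the modified form the study used, gave on linear values 5 of 11 members before adjustment, against 17.9% of all probe sets, and 0 of 11 after it, against 1.75%. The filter at 50 left no value for sod-5 and mtl-1. With 1 array left out mtl-1 ran from -0.40 to 0.14, sod-4 from -0.11 to 0.02, sod-5 from 0.22 to 0.52 and the probe set of ctl-1 and ctl-3 from 0.035 to 0.18. The cause was not tested. Over the whole array, in place of 191 probe sets, 366 passed with an offset of 50, 416 with no filter, 443 with array weights, 329 and 381 by the methods' t-test on linear and log2 values, 1717 with the sperm score as a covariate, 83 without the 3 arrays of low sperm score, and between 78 (without BW1940 replicate 3) and 151 (without BW1940 replicate 5) with 1 array left out. Among listed genes, in place of 1, there were 2 with an offset of 50, 2 with no filter, 3 with array weights, 11 with the sperm score, and 1 whichever array was left out. With the replicate number as a block, 5 probe sets passed, 0 members and 0 listed genes. Deviations of same-numbered arrays from their strain means had correlations of -0.69, -0.64, -0.30, -0.59 and 0.10 for replicates 1 to 5. The spread in sperm RNA enters these correlations, so they cannot show whether same-numbered arrays were prepared together. The labels give only the replicate number. Near the floor, as for mtl-1 and sod-5, the offset understates changes on the log2 scale.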

Other observations

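The small heat shock genes hsp-16.2 and hsp-16.41, outside the members, marked a few single arrays. The value of hsp-16.2, which heat and other protein stress induce, was 302 on BW1940 replicate 2 and 76.6 on BW1940 replicate 3, against 154 on LT186 replicate 1, and at most 17.0 on the other 8 arrays. The value of hsp-16.41 was 157 and 30.9 on the same BW1940 arrays, against 97.4 on LT186 replicate 1, and at most 5.02 on the others. The other small heat shock genes tested ran otherwise. The lowest value of hsp-12.6 was on BW1940 replicate 2 (1.44). For sip-1 the values were 805 and 122 on BW1940 replicates 2 and 3 and 1034 on LT186 replicate 1, with the highest, 1299, on LT186 replicate 6. BW1940 replicate 2 and LT186 replicate 1 were also the highest arrays of their strains for sod-5 (36.6 and 28.1), while BW1940 replicate 3 was the lowest of its strain (10.1). For sod-3 the BW1940 replicates 2 and 3 were at 73.6 and 82.3 and LT186 replicate 1 at 83.8, within the range of the other arrays. The genes hsp-16.2 and hsp-16.41 were singled out after their values were seen. Their log2 fold changes between BW1940 and LT186 were 0.85 (adjusted p = 0.708) and 0.63 (adjusted p = 0.777) by limma.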
